A study of Mus musculus with 6 samples.

Results

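The olfactory and vomeronasal receptor genes were followed in mouse two-cell embryos. The set holds every gene of the expression table whose symbol begins with Olfr, Vmn1r or Vmn2r and a number, which gave 1736 of 53023 genes. Of these, 1406 are olfactory receptors (Olfr), 209 are vomeronasal type 1 receptors (Vmn1r) and 121 are vomeronasal type 2 receptors (Vmn2r). The annotation lists 1459 as protein coding and 276 as pseudogenes of several types.

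RNA-seq was done on ICR two-cell embryos at 28 h post insemination (hpi), as 2 libraries per group with 5 pooled embryos each. The PIASy-WT group received mRNA for wild-type PIASy, an E3 SUMO ligase encoded by Pias4, with an mCherry-HA tag. The PIASy-Mut group received mRNA for the C335F form with an mCherry-HA tag, a mutant of the SUMO ligase. The non-injection group received no RNA and no injection. Both RNAs were given at 100 ng/µl between 1.5 and 3 hpi, and zygotes with fluorescence at 9 hpi were kept. The control therefore lacks both the injection and the selection step. The comparisons ask how the wild-type ligase alters transcripts relative to each of the other groups.

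Olfactory and vomeronasal receptors are G-protein-coupled receptors of sensory neurons in the nose. A mature olfactory neuron expresses a single receptor allele and keeps the other receptor genes silent in heterochromatin. In other cells most of these genes are silent, so they give a view of transcripts that an embryo is not known to need. V1Rs detect small molecules and V2Rs detect peptides and proteins. They are grouped in genomic clusters of related copies, and reads were counted only where they mapped uniquely, which leaves members with close copies less well measured.

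The libraries held 871663 to 1363928 fragments on genes. Pias4, which was read together with the injected RNA, was at 2.98 and 3.59 FPKM (fragments per kilobase of gene, scaled to the depth of the library) in non-injection, at 862 and 611 FPKM in PIASy-Mut, and at 610 and 579 FPKM in PIASy-WT. The library PIASy-Mut 1 stood apart in its share of mitochondrially encoded transcripts, 1.28% against 5.82 to 8.14% in the other 5 libraries. Two-cell genes were present in every library, and the 6 of that list summed to 1545 to 1719 CPM (fragments scaled to equal library totals) in non-injection, 1619 to 1748 CPM with PIASy-Mut and 628 to 882 CPM in PIASy-WT. Within it, Obox3 was called lower in PIASy-WT, and it was the 1 call of the list in each comparison with PIASy-WT.

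Receptor transcripts were scarce in all 6 libraries. They made up 0.106 to 0.150% of fragments. A fragment was found for 442 receptor genes (25.5%) in at least 1 library, and 1294 had none in any library. Of the 442, 209 were seen in only 1 library, 73 in 2, 53 in 3, 33 in 4, 26 in 5 and 48 in all 6. The number of fragments did not exceed 3 in any library for 314 of them. A count of 0 allows a level of up to 2.20 to 3.44 CPM, the level of 3 fragments in the deepest and the shallowest library, and this covers counting error only.

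**Figure D1:**
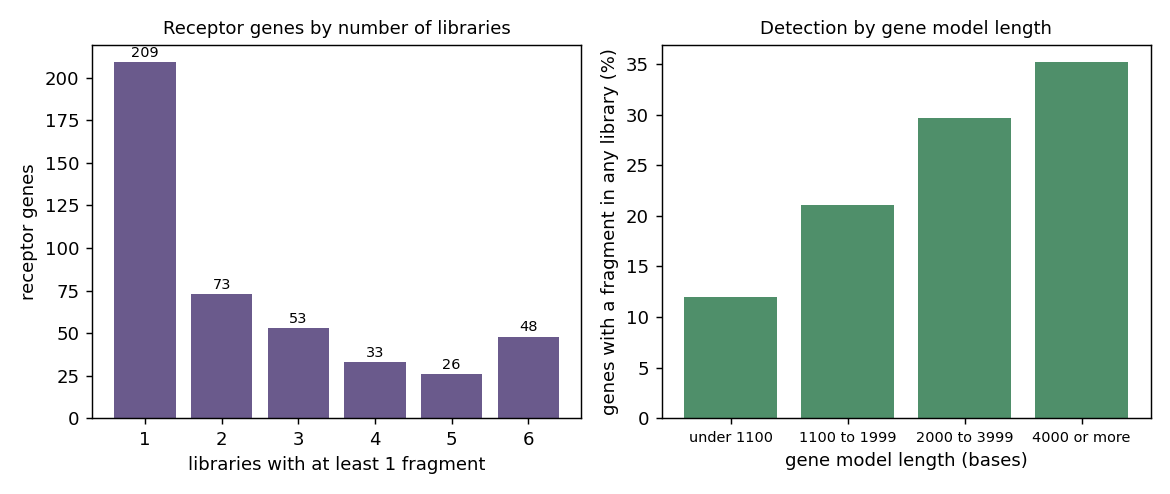
Left, the number of receptor genes (y axis) by the number of libraries in which they had at least 1 fragment (x axis). Right, the percentage of receptor genes with a fragment in any library (y axis) by gene model length in bases (x axis). The largest class, 209 genes, was seen in 1 library, and the percentage ran from 11.95 in the shortest to 35.2 in the longest models.

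Pooled over the families, the share of genes detected was larger with the length of the gene model. It was 11.95% of 410 genes under 1100 bases, 21.1% of 247 genes from 1100 bases, 29.6% of 695 genes from 2000 bases and 35.2% of 384 genes of 4000 bases or more. The Olfr genes had this order, from 11.9% to 35%. Vmn1r genes went from 12.3 to 40.9 and 45.7% and then to 36.7% of the 60 longest, and of the Vmn2r genes 31.9% of 116 from 2000 bases and 1 of 4 longer ones were detected. In the olfactory family the coding sequence is short and sits mostly in 1 exon, whereas V2R genes have a long coding sequence over several exons. Among Olfr genes whose identifier matched the annotation, median coding length was 942 bases in the 20 expressed genes (defined below by their fragments), 942 bases in 304 other detected genes and 939 bases in 863 genes with no fragment. Their lengths outside the coding sequence had medians of 1864, 2318 and 1881 bases. By family, 24.3% of Olfr, 29.7% of Vmn1r and 31.4% of Vmn2r genes had a fragment. The detected genes lay in 56 of 82 genomic clusters (members less than 1 Mb apart). The largest cluster, at chr2:85330779-90403897 (mm10), had fragments for 62 of its 287 genes (21.6%), and the cluster at chr17:37083871-38336643 for 29 of its 58 (50%).

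To compare groups, each library was reduced to the depth of the smallest, 871663 fragments, and the expected number of detected genes was computed. At this depth 135 and 145 receptor genes had a fragment in non-injection, 141 and 168 with PIASy-Mut, and 174 and 191 in PIASy-WT. Both PIASy-WT libraries were above all 4 others, although PIASy-Mut 2 reached 168, close to the lower PIASy-WT library. The means were 140.1 ± 6.7, 154.6 ± 18.9 and 182.5 ± 11.9 (SD, n = 2 per group). PIASy-WT was thus 1.30 times non-injection and 1.18 times PIASy-Mut, and PIASy-Mut was 1.10 times non-injection. The last difference was within the spread of the PIASy-Mut libraries, and at full depth, where the PIASy-Mut libraries are the shallowest, it turned to 0.985 times. An exact permutation test of 2 against 2 libraries has 0.333 as its smallest two-sided P, and these numbers were not tested. The study's methods call replicates biological, and neither they nor the labels say whether the pools of a group came from separate fertilizations, so that part of the spread may be technical.

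**Figure D2:**
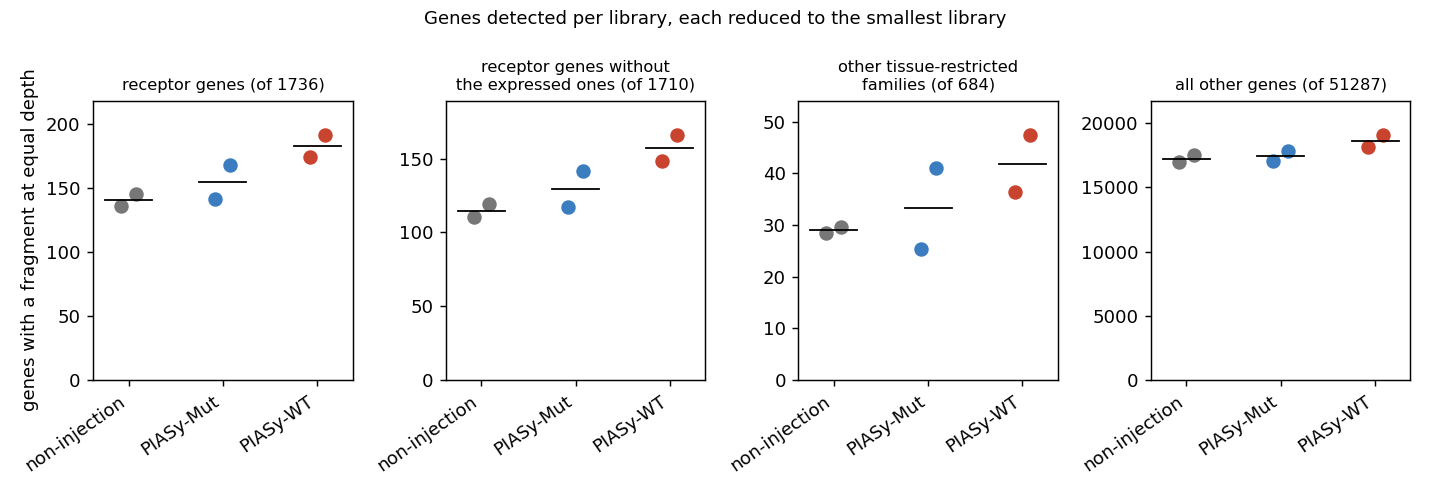
Expected number of genes with at least 1 fragment (y axis) at the depth of the smallest library, for each library (points) of the 3 groups (x axis) with the group mean (line). Each panel is a set of genes. The 2 PIASy-WT libraries had the highest numbers of receptor genes, 174 and 191, and also the highest numbers of all other genes.

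The same order was found outside the receptor families. All other genes of the table gave 16954 and 17516 detected in non-injection, 17083 and 17824 with PIASy-Mut, and 18131 and 19062 in PIASy-WT, a ratio of 1.08 to non-injection and 1.07 to PIASy-Mut. A group of 684 genes from other tissue-restricted families (taste, trace amine and formyl peptide receptors, keratin-associated proteins, beta defensins, and immunoglobulin and T cell receptor variable segments) gave 28.5 and 29.7 in non-injection, 25.4 and 41.0 with PIASy-Mut, and 36.4 and 47.4 in PIASy-WT, where PIASy-Mut and PIASy-WT overlapped. Its ratios were 1.44 to non-injection and 1.26 to PIASy-Mut. Of these families, 1 had both PIASy-WT libraries above all others, the 43 beta defensins, with 7.97 and 6.49 in non-injection, 6.79 and 8.0 with PIASy-Mut and 10.4 and 14.7 genes in PIASy-WT. By contrast, the 43 taste receptors went the other way, with 2.55 ± 0.86 genes in PIASy-WT and 3.79 ± 0.34 in non-injection (SD, n = 2). A higher number in PIASy-WT was therefore not particular to the receptor genes. Transcripts were also less evenly spread in PIASy-WT, where the 100 most abundant genes took 32.8 and 33.7% of fragments against 19.2 to 26.4% in the other 4 libraries. The part of this in the number of detected genes was not tested.

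By family, the number in PIASy-WT was 1.33 times that in non-injection for Olfr, 1.30 times for Vmn1r and 1.07 times for Vmn2r genes. Olfr genes numbered 105.6 ± 4.6 genes in non-injection, 117.7 ± 13.2 with PIASy-Mut and 140.7 ± 8.7 in PIASy-WT. Vmn1r genes numbered 21.3 ± 0.9, 23.7 ± 1.9 and 27.7 ± 1.0. Both PIASy-WT libraries were above all 4 others in these families. Vmn2r genes numbered 13.1 ± 3.0, 13.3 ± 3.9 and 14.0 ± 2.2, and here the groups overlapped. Without the 26 expressed genes the numbers were 114.7 ± 6.4, 129.7 ± 17.4 and 157.1 ± 12.3, 1.37 times as many in PIASy-WT as in non-injection and 1.21 times as many as in PIASy-Mut. This set was added after the data were seen.

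The receptor genes were also sorted by their number of fragments at equal depth. Genes with exactly 1 fragment were expected to number 57.5 and 70.1 in non-injection, 67.3 and 80 with PIASy-Mut, and 69.3 and 79.8 in PIASy-WT, where the groups overlapped. Genes with 2 to 9 fragments numbered 56.6 and 55.0, 57.7 and 67, and 81.2 and 89.0 in the same order, and both PIASy-WT libraries were the highest. Genes with 10 or more numbered 21.2 and 19.7, 16.2 and 21, and 23.5 and 22.04. All other genes were highest in PIASy-WT both with 1 fragment, at 3800 and 4112 against 3260 to 3451, and with 2 to 9, at 6743 and 7292 against 5712 to 6251. With 10 or more they were lowest in PIASy-WT, at 7588 and 7658 against 7785 to 8132, whereas both PIASy-WT libraries had the highest numbers of receptor genes in that class. These classes at equal depth were added after the data were seen. In total, receptor fragments reached 1143 and 1234 CPM in non-injection, 1061 and 1288 CPM with PIASy-Mut and 1500 and 1443 CPM in PIASy-WT.

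Which low-level genes were seen varied between libraries of a group. Shared and exclusive genes are counted here at full depth, where the PIASy-Mut libraries are the shallowest. Without the 26 expressed genes, the 2 PIASy-WT libraries shared 93 receptor genes, 52.2% and 49.5% of their 178 and 188. The non-injection libraries shared 56 (41.2% and 40.6% of 136 and 138), and the PIASy-Mut libraries 59 (45.7% and 41.5% of 129 and 142). Libraries of different groups shared genes too, such as 78 between non-injection 1 and PIASy-WT 1 (57.4% and 43.8%). A fragment in both PIASy-WT libraries and in no other was found for 11 receptor genes, 2.49% of the 442, and for 2.22% of all 27826 genes with a fragment. The same for non-injection was 5 receptor genes, 1.13%, against 0.622% of all genes, and for PIASy-Mut 4 receptor genes, 0.905%, against 0.406%. The receptor share for PIASy-WT was thus near that of all genes. Among the 11, Olfr63 (chr17:33264676-33275644, mm10) had 8 and 10 fragments in PIASy-WT and 0 in the other 4 libraries. Summed over the group this was at least 6.05-fold higher than 3 fragments over the non-injection group would be, and at least 4.62-fold higher than 3 fragments over PIASy-Mut. Olfr108 had 3 and 3 fragments and the remaining 9 had 1 to 3 in each PIASy-WT library. These genes were picked out after their values were seen.

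A receptor gene was called expressed when both libraries of at least 1 group held 10 or more fragments. This held for 26 genes, 20 Olfr, 1 Vmn1r and 5 Vmn2r, in 17 clusters. They took 70.8% of all receptor fragments, with 68.7 to 75.9% in single libraries. With a minimum of 5 fragments the number was 47, and with 20 it was 14. For 3 of the 26 another gene lies within the same span on the same strand, Gm44840 for Olfr1300-ps1, Gm44579 for Olfr288 and Gm45543 for Olfr373, and each of these other genes was listed at 0 in all 6 libraries. Exons overlap for Olfr1300-ps1 and Olfr288, where uniquely mapped fragments cannot be split with certainty. For Olfr373 only the spans overlap. Of the Olfr288 model, 72.4% of 50-base stretches occur elsewhere among annotated transcripts, and of the Vmn2r51 model 51.7%, so these levels are uncertain.

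**Figure D3:**
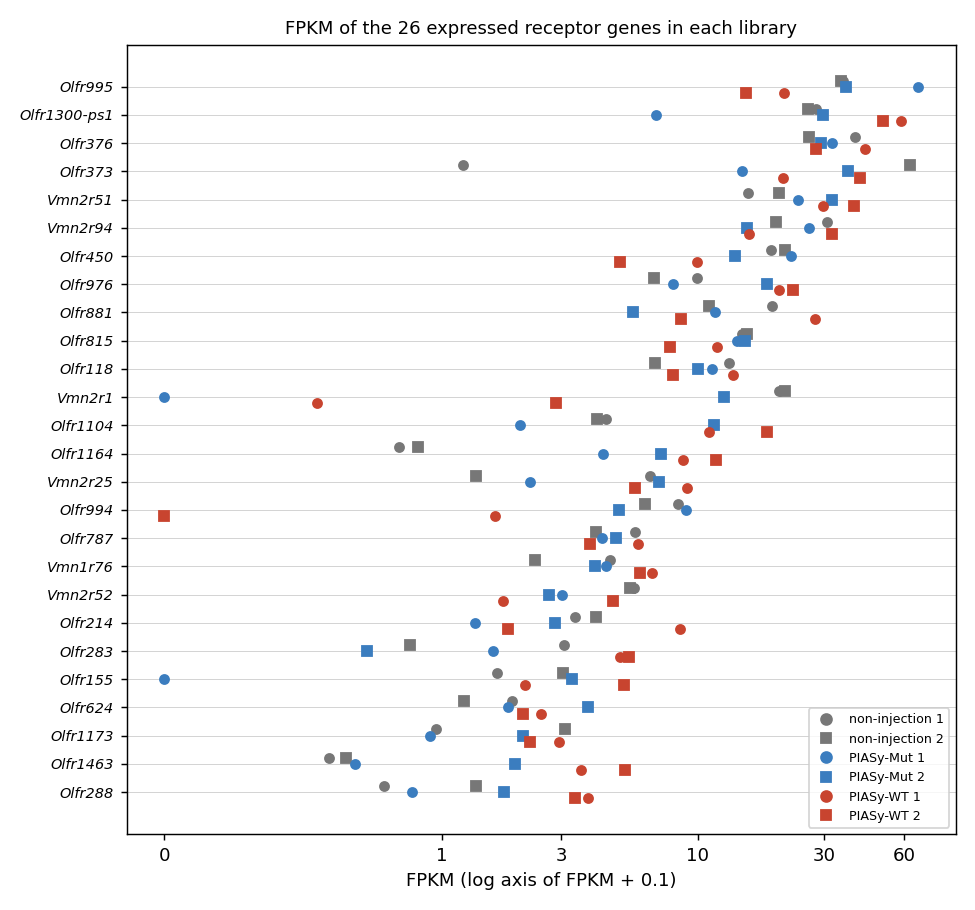
FPKM (x axis, a log axis of FPKM + 0.1) of each of the 26 expressed receptor genes (y axis) in each library, with colour for the group and a circle or square for replicate 1 or 2. Genes are sorted by their mean over the 6 libraries. Olfr373 in non-injection spanned 1.22 to 63.3 FPKM, while Olfr376 kept between 26.5 and 42.9 FPKM in all 6 libraries.

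Sequences upstream of the start are shown for 5 of the expressed genes, because their RefSeq start lies at or near the start of the deposited gene model and because they include the called gene Olfr1164, a gene highest in both PIASy-WT libraries (Olfr976), a V2R gene uneven between groups (Vmn2r1) and a pair of V2R neighbours. RefSeq (GRCm38.p6) windows of 250 bases before to 50 after a start were at hand for 21 of the 28 genes named here. In 9 of them a RefSeq start was within 200 bases of the deposited start, and in 10 it lay over 1000 bases inside the gene model, next to the coding exon. Capitals mark matches on either strand to TATAAA (the TATA box core), TAATTA (a homeodomain core of the Lhx2 type), GGATTA (a core of OTX-like homeodomains) or CCCNNGGG (the core bound by the EBF factors of olfactory neurons), and no matches overlapped in these windows.
Olfr1164, chr2:88093917-88094216, minus strand: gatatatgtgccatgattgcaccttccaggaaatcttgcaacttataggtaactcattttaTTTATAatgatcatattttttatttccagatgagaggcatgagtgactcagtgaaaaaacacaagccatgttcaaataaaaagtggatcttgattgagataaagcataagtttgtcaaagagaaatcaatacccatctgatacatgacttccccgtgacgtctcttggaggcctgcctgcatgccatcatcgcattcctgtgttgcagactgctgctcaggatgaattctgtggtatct
Olfr976, chr9:39960995-39961294, minus strand: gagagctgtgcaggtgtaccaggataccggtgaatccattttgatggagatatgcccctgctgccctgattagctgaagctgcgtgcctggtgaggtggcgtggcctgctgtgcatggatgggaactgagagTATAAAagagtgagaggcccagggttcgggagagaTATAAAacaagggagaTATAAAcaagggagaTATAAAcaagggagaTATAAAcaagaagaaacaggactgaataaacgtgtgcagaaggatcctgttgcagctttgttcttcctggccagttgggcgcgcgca
Vmn2r1, chr3:64081392-64081691, plus strand: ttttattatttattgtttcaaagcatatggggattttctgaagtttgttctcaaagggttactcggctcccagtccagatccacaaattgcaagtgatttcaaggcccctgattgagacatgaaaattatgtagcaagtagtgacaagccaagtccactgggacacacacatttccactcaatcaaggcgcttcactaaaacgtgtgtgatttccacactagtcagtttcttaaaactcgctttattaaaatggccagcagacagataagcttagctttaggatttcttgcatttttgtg
Vmn2r51, chr7:10105610-10105909, minus strand: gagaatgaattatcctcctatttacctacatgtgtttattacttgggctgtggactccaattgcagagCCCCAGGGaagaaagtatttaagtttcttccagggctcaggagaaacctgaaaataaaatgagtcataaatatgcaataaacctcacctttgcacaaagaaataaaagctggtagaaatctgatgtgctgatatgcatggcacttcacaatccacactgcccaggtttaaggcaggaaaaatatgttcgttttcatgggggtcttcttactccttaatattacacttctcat
Vmn2r52, chr7:10176237-10176536, minus strand: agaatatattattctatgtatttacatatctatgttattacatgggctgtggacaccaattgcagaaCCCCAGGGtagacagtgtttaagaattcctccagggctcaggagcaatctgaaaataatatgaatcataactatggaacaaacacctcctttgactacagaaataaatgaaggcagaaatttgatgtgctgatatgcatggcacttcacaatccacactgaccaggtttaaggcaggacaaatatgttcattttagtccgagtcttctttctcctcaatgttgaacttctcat

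TATAAA was present once in the Olfr1164 window, 189 bases before the start, and 5 times in the Olfr976 window shown, from 118 to 37 bases before the start. A second Olfr976 window, with its start 4064 bases inside the gene model, held none of the 4 motifs. The neighbours Vmn2r51 and Vmn2r52 both held CCCNNGGG, at 182 and 183 bases before the start, and their windows were identical at 213 of 300 positions (71.0%) without gaps. The Vmn2r1 window held none of the 4 motifs. TATAAA was present in 11 of 22 windows of the named genes (50%), in 39.6% of 1270 windows of receptor genes and in 13.6% of all 32851 windows. TAATTA was present in none of the 22, in 16.6% of the receptor windows and in 5.29% of all. GGATTA was present in none of the 22, in 9.37% and in 7.06%. CCCNNGGG was present in 3 of 22 (13.6%), in 4.17% and in 13.7%. A match is a description of the letters only.

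Several expressed genes were steady across the groups. Olfr376 (chr11:73371246-73377836) had 39.3 and 26.5 FPKM in non-injection, 32.2 and 29.2 FPKM with PIASy-Mut and 42.9 and 28.1 FPKM in PIASy-WT. Its values stayed within 26.5 to 42.9 FPKM, and the groups overlapped. Olfr787 and Olfr118 also overlapped in all groups, at 3.86 to 5.93 FPKM and 6.87 to 13.6 FPKM. For Olfr376 the log2 fold change of PIASy-WT against non-injection was 0.10 ± 0.33 (SE) with an adjusted P of 0.863 in limma.

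Others were uneven within a group. Olfr373 (chr8:72083177-72103084) had 1.22 and 63.3 FPKM in non-injection, 14.7 and 37.1 FPKM with PIASy-Mut and 20.98 and 40.9 FPKM in PIASy-WT. The non-injection libraries alone held the lowest and the highest value, from 7 and 301 fragments. Vmn2r94 ranged from 15.4 to 32.2 FPKM with no separation of groups, and its PIASy-WT libraries were at 15.7 and 32.2 FPKM. Of the 78 combinations of an expressed gene with a group, 26 had replicates more than 2-fold apart and 6 more than 5-fold, of which 3 had 1 replicate at 0. The replicates were within 2-fold in all 3 groups for 9 of the 26 genes.

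Vmn2r1 (chr3:64081642-64105458), of the V2R family that is expressed alongside other V2Rs in the same neurons, had 20.3 and 21.3 FPKM in non-injection, 0 and 12.6 FPKM with PIASy-Mut and 0.276 and 2.86 FPKM in PIASy-WT. Both non-injection libraries were the highest, and the gene was named through them alone. The lowest value was in PIASy-Mut 1. The log2 fold change of PIASy-WT against non-injection, on log2(FPKM + 1), was -3.30 ± 1.21 (SE) with an adjusted P of 0.142 in limma, so it did not pass. It passed in 2 alternatives, with only the 4 libraries compared (adjusted P of 0.0279) and with voom on fragments (0.0274).

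The test across all genes covered 93 receptor genes, those that reached an FPKM of 1 in 2 or more libraries. The other 1643 were too low, 349 of them with a fragment somewhere. Of the 93, 60 would have passed without the PIASy-WT libraries and 4 passed through these libraries alone. Calls required an adjusted P no higher than 0.05 together with a log2 fold change of 2 or more in size. PIASy-WT against non-injection gave 1 higher receptor gene, with 0.602% of all 16100 genes called higher, and 0 lower, with 3.81% of all genes called lower. In voom on fragments it gave 7 higher (Olfr1164, Olfr1463, Olfr1257, Olfr915, Olfr328, Olfr132 and Vmn1r179) and 2 lower (Olfr994 and Vmn2r1), beside 1.81% and 6.82% of all genes. PIASy-WT against PIASy-Mut gave 2 higher, with 0.516% of all genes, and 0 lower, with 4.06%, and in voom 3 higher (Olfr1083-ps, Olfr848-ps1 and Olfr1300-ps1) and 1 lower (Olfr994), beside 1.37% and 6.42%. PIASy-Mut against non-injection gave 0 in limma, with 0.00621% of all genes called higher and 0% lower. In that comparison 3 receptor genes (3.23%) were higher and 1 (1.08%) lower at an unadjusted P under 0.05, beside 2.37% and 2.09% of all genes, and voom also gave 0.

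At an unadjusted P under 0.05, PIASy-WT against non-injection had 14 receptor genes higher (15.1% of 93) and 4 lower (4.30%), beside 10.6% and 17.6% of all genes. PIASy-WT against PIASy-Mut had 11 higher (11.8%) and 4 lower (4.30%), beside 9.46% and 18.2%. The shares that were higher turned with the filter. With no filter, 22 of 442 receptor genes (4.98%) were higher against non-injection beside 7.54% of all genes, and 21 (4.75%) against PIASy-Mut beside 7.07%. With a filter of FPKM 5 they were 3 of 25 (12%) beside 13.0%, and 1 of 25 (4%) beside 10.8%. With no filter, the median log2 fold change of the 442 was 0.11 relative to non-injection, where all genes had 0.06, and 0.06 relative to PIASy-Mut, where all genes had 0.04. In the main fit the medians were 0.49 and 0.29, where all genes had 0.01 and -0.03. With FPKM 5 they were 0.73 and 0.29, where all genes had -0.11 and -0.14. Both of these filters count the PIASy-WT libraries, so that genes high there enter more easily. Over the 60 receptor genes that passed the filter without the PIASy-WT libraries the medians were 0.34 and 0.16, where the 13975 such genes in all had -0.14 and -0.17. That filter, added after the data were seen, favours genes that are high in the other groups. Both PIASy-WT libraries lay above all 4 others for 20 of 93 (21.5%), near the 19.9% of all genes, and below for 6 (6.45%), where all genes had 24.4%. These shares describe the receptor genes that passed the filter only, and their difference from other genes was not tested.

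Olfr1164 was the receptor gene called higher in PIASy-WT against non-injection. It is a gene of 1 exon at chr2:88092855-88093966, minus strand, with 978 coding of 1112 bases. It had 0.659 and 0.795 FPKM in non-injection, 4.36 and 7.22 FPKM with PIASy-Mut and 8.82 and 11.7 FPKM in PIASy-WT. The 3 groups did not overlap, with PIASy-Mut between the others. These values rest on 1 and 1, 5 and 7, and 13 and 15 fragments. The log2 fold change was 2.70 ± 0.39 (SE), with an adjusted P of 0.0292 in limma. As a ratio of summed CPM this was 14.1-fold with an exact 95% counting interval of 3.56 to 122. Against PIASy-Mut the log2 fold change was 0.75 ± 0.39 with an adjusted P of 0.269. With any of the 4 libraries compared left out, the log2 fold changes were 2.51 to 2.88. These fits leave 1 library in a group and cannot show whether the call holds.

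The 2 genes called higher in PIASy-WT against PIASy-Mut were pseudogenes at the limit of detection. Olfr1083-ps (chr2:86606627-86607569) had 1.55 and 0 FPKM in non-injection, 0 and 0 with PIASy-Mut and 4.0 and 9.23 FPKM in PIASy-WT, from 5 and 10 fragments. Olfr848-ps1 (chr9:19403600-19404529) had 3.15 and 0.951 FPKM, 0 and 0, and 6.49 and 3.74 FPKM, from 8 and 4 fragments in PIASy-WT. In both, the PIASy-WT libraries were above all others. Neither gene reached the filter without the PIASy-WT libraries, so that a difference was built into their being tested, and with no filter neither was called. The adjusted P values in limma were 0.0496 and 0.0435. Against the level of 3 fragments over the PIASy-Mut group, the PIASy-WT level of Olfr1083-ps was at least 3.85-fold higher and that of Olfr848-ps1 at least 3.08-fold higher. With either PIASy-WT library or either PIASy-Mut library left out, log2 fold changes were 2.32 to 3.35 for Olfr1083-ps and 2.25 to 2.90 for Olfr848-ps1. These fits leave 1 library in a group and cannot show whether the calls hold. Fold changes are large and uncertain for such short models, where a single fragment is worth about 1 FPKM.

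**Figure D4:**
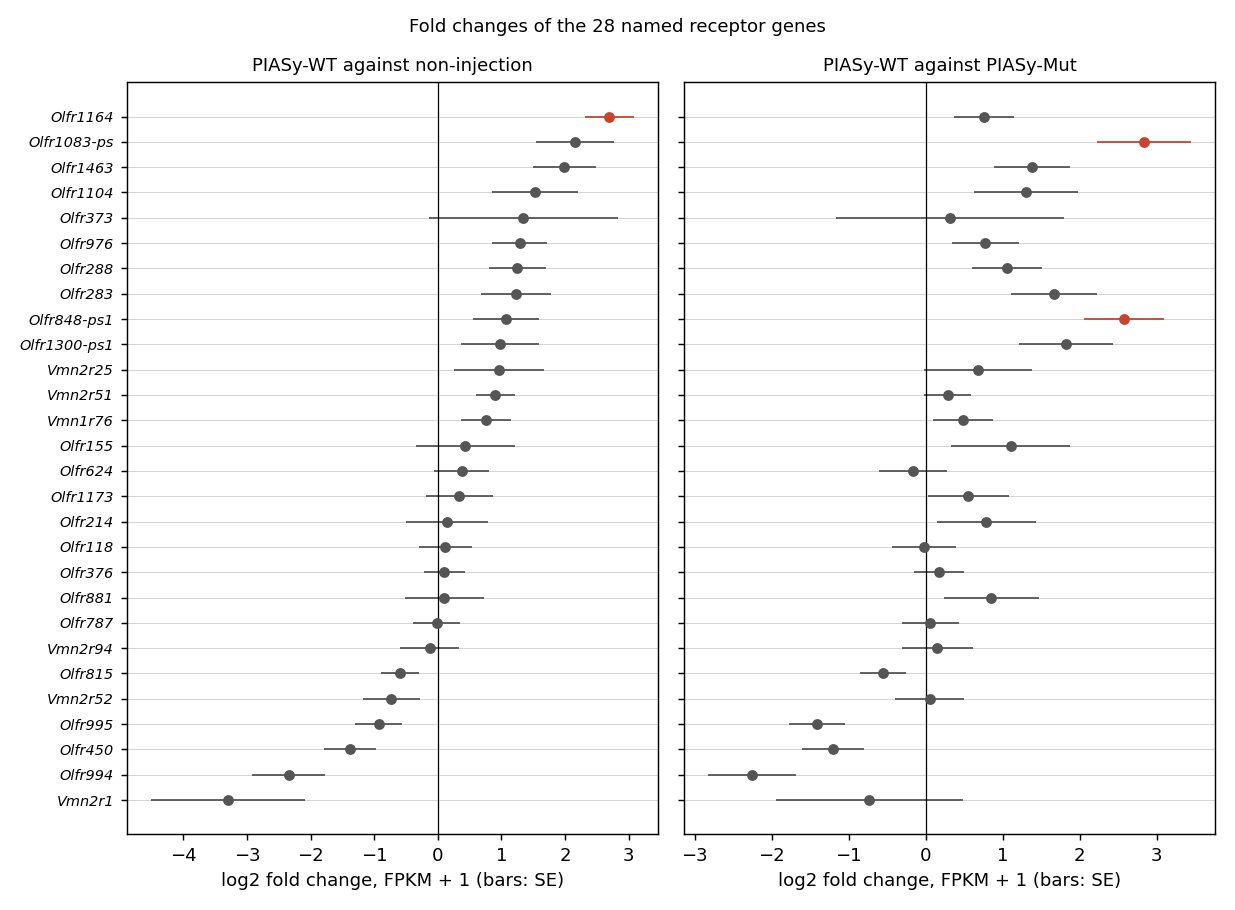
Log2 fold change on FPKM + 1 (x axis) with its SE (bars) of the 28 named receptor genes (y axis), for PIASy-WT against non-injection (left) and against PIASy-Mut (right). Red points had an adjusted P no higher than 0.05 and a log2 fold change of 2 or more. Olfr1164 passed on the left with 2.70, and Olfr1083-ps and Olfr848-ps1 passed on the right with 2.84 and 2.58.

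Both PIASy-WT libraries were above all 4 others for 9 of the 28 named genes, below for 4, and overlapped with others for 15. Of all 16100 genes tested, 19.9% lay above and 24.4% below. Naming the 28 used these same values, so that their count is a description. Of the 9, 6 were named through PIASy-WT alone. They had 10 fragments in both of its libraries and of no other group, or were called higher in it. Of the 4 below, Olfr994 was named through non-injection alone. Among the genes above, Olfr976 (chr9:39954139-39961133) had 9.97 and 6.80 FPKM in non-injection, 8.02 and 18.3 FPKM with PIASy-Mut and 20.3 and 22.9 FPKM in PIASy-WT. Olfr1300-ps1 (chr2:111667437-111693319) had 27.9 and 26.1 FPKM, 6.94 and 29.8 FPKM, and 58.4 and 50.2 FPKM in the same order. The gap to the other groups was narrow for the first and wide for the second. Olfr1463 (chr19:13231328-13236400) had 0.317 and 0.382 FPKM, 0.419 and 1.98 FPKM, and 3.59 and 5.26 FPKM. Its non-injection values rest on 1 fragment each, and the summed ratio to non-injection was 12.6-fold with an exact 95% counting interval of 3.14 to 109.8. The remaining genes above were Olfr283, Olfr288 and Vmn1r76, with the called pseudogenes and Olfr1164. Outside the 3 called genes, adjusted P values in limma for these genes were 0.0665 to 0.341 against non-injection and 0.118 to 0.464 against PIASy-Mut. Olfr1463 passed against non-injection with voom (log2 fold change 3.10, adjusted P of 0.0249). Olfr1300-ps1 passed against PIASy-Mut with voom (2.04, 0.0189), and its log2 fold change in limma without PIASy-Mut 2 was 2.80.

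The 4 genes below were Olfr994, Olfr995, Olfr450 and Olfr815. Olfr994 (chr2:85429380-85436451) and Olfr995 (chr2:85437528-85443639) are neighbours on the minus strand, 1076 bases apart. Olfr994 had 8.40 and 6.27 FPKM in non-injection, 8.99 and 5.01 FPKM with PIASy-Mut and 1.65 and 0 FPKM in PIASy-WT. Olfr995 had 35.5 and 34.9 FPKM, 67.7 and 36.2 FPKM, and 21.3 and 15.2 FPKM. Both neighbours were lowest in the PIASy-WT libraries. The log2 fold changes against non-injection were -2.35 ± 0.57 for Olfr994 and -0.93 ± 0.37 for Olfr995 (SE), with adjusted P values of 0.0633 and 0.163 in limma. Olfr994 passed against non-injection with voom on fragments (log2 fold change -3.51), with a filter of FPKM 5 (-2.35) and with the replicate block (-2.35).

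Olfr450 (chr6:42811939-42819081) had 18.9 and 21.4 FPKM in non-injection, 22.4 and 13.9 FPKM with PIASy-Mut and 9.93 and 5.04 FPKM in PIASy-WT. Its log2 fold change against non-injection was -1.38 ± 0.40 (SE), with an adjusted P of 0.0911 in limma. Olfr815 (chr10:129900570-129905867) had 14.8 and 15.3 FPKM, 14.1 and 15.1 FPKM, and 11.8 and 7.85 FPKM. The first 4 libraries were close to each other and the PIASy-WT libraries lay below them, with a log2 fold change of -0.59 ± 0.30 and an adjusted P of 0.255.

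The neighbouring V2R genes differed in level. Vmn2r51 (chr7:10087198-10105659) had 15.5 and 20.4 FPKM in non-injection, 23.9 and 32.3 FPKM with PIASy-Mut and 29.8 and 39.1 FPKM in PIASy-WT. Vmn2r52 (chr7:10158652-10176286), which lies 52992 bases away, had 5.73 and 5.53 FPKM, 3.03 and 2.69 FPKM, and 1.77 and 4.76 FPKM. Vmn2r51 was above its neighbour in each of the 6 libraries. Neither passed the test, with log2 fold changes against non-injection of 0.90 ± 0.31 and -0.73 ± 0.45 (SE) and adjusted P values of 0.121 and 0.338 in limma. The remaining named genes, Olfr881, Olfr1104, Olfr1173, Olfr155, Olfr214, Olfr624 and Vmn2r25, ranged from 0 to 27.8 FPKM over the libraries, with overlapping groups.

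Genes of the sensory neurons that carry these receptors were nearly absent. Of 15 such genes, Omp (olfactory marker protein), Trpc2 (the vomeronasal channel), Rtp1 (a receptor transporter) and Gng13 (a G protein subunit) were at 0 in all 6 libraries, and 1 of the 15, Ano2, was abundant enough to be tested. The list summed to 16.9 and 31.0 CPM in non-injection, 19.4 and 27.5 CPM with PIASy-Mut and 17.4 and 26.97 CPM in PIASy-WT, and none of it was called in any comparison, by limma, by voom or at an unadjusted P under 0.05. The number of receptor genes was higher in PIASy-WT while these markers were within the range of the other groups. A link between them was not tested.

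Regulators of receptor choice in neurons were measured too. Of 11, 4 could be tested and 0 were called in limma. At an unadjusted P under 0.05 in limma and in voom, 1 of the 4, Ebf1, was lower in both comparisons with PIASy-WT. Of all genes, 17.6% were lower against non-injection and 18.2% against PIASy-Mut at that unadjusted P. In voom 6.82% and 6.42% were called lower. Ebf1, an olfactory transcription factor, had 12 and 6 fragments in the PIASy-WT libraries, beside 37 and 67 in the control and 61 and 35 with the mutant. The log2 fold change was -1.59 ± 0.46 (SE) with an adjusted P of 0.0905 against non-injection in limma. The 2 PIASy-WT libraries were below the other 4. Lhx2, which drives receptor expression in neurons, had 4 and 7 fragments in PIASy-WT and 1 to 3 in the other 4 libraries. Ebf2 had 10 and 4 beside 3 to 4, Emx2 8 and 3 beside 1 to 4, and Ebf3 4 and 1 beside 1 to 5. These genes were too low to be tested.

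Genes that keep receptor clusters silent in other cells were abundant, at 907 to 1102 CPM in sum over the 6 libraries. Of 14, 13 could be tested and 0 were called at a log2 fold change of 2 in either direction in limma or voom. At an unadjusted P under 0.05, 2 were higher and 5 lower against non-injection, and 1 higher and 5 lower against PIASy-Mut. Of all genes 10.6% were higher and 17.6% lower in the former, and 9.46% and 18.2% in the latter. At an adjusted P no higher than 0.05 but without that limit, 1 of the 13 was lower against non-injection and 3 were lower against PIASy-Mut, beside 5.76% and 6.01% of all genes, and 0 were higher, beside 1.03% and 0.82%. Hdac1, a histone deacetylase, was lower in both comparisons with PIASy-WT, with log2 fold changes of -1.50 ± 0.27 and -1.51 ± 0.27 (SE) and adjusted P values of 0.0356 and 0.0342. Lbr, the lamin B receptor that holds heterochromatin at the nuclear edge, was at -1.12 ± 0.26 against non-injection, with an adjusted P of 0.0559, and at -1.45 ± 0.26 against PIASy-Mut, with 0.0343. Trim28, a corepressor, was at -1.55 ± 0.33 against PIASy-Mut, with an adjusted P of 0.0491. The H3K9 methyltransferase Suv39h2 and the HP1 protein Cbx1 were at 1.02 ± 0.37 and 1.45 ± 0.36 against non-injection, with adjusted P values of 0.141 and 0.0640. Suv39h1, the related methyltransferase, was at -1.23 ± 0.35 relative to the control and -1.38 ± 0.35 relative to the mutant, with adjusted P values of 0.0852 and 0.0683.

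Of the 7 oocyte genes, 5 had a log2 fold change above 0 against non-injection and 2 below, and against PIASy-Mut 3 were above and 4 below. The 7 genes of the oocyte list summed to 4296 and 3871 CPM in non-injection, 4047 and 6227 CPM with PIASy-Mut and 7790 and 7526 CPM in PIASy-WT. None was called in limma or voom. At an unadjusted P under 0.05 in limma, 3 were higher and 1 lower against non-injection, and 1 and 1 against PIASy-Mut. Of all genes, 10.6% were higher and 17.6% lower in the former, and 9.46% and 18.2% in the latter. Bmp15, an oocyte growth factor, had 5204 and 5199 fragments in PIASy-WT against 1036 to 2011 in the other 4 libraries. Without it the remaining 6 genes summed to 2821 and 2461 CPM, 3043 and 3949 CPM, and 3864 and 3002 CPM in the same order, and PIASy-Mut and PIASy-WT overlapped. This sum was added after the data were seen. Gdf9, another oocyte growth factor, was at 1.29 ± 0.33 against non-injection with an adjusted P of 0.0708 in limma, Zp2 of the egg coat at 0.81 ± 0.27, Nlrp5 at 0.65 ± 0.27 and Oosp1 at 0.30 ± 0.32, with adjusted P values of 0.123 to 0.569. Zp3, another protein of the egg coat, was lower in PIASy-WT at an adjusted P no higher than 0.05 without the fold limit, by a log2 fold change of -1.57 ± 0.23 (SE) relative to the control and of -1.67 ± 0.23 relative to the mutant, at adjusted P values of 0.0292 and 0.0240 in limma. Padi6, of the oocyte lattices, was at -0.49 ± 0.34 and -0.67 ± 0.34, with adjusted P values of 0.395 and 0.267. Cumulus cell genes summed to 8.06 and 14.1 CPM, 14.5 and 20.7 CPM, and 30.2 and 23.5 CPM, with Amh and Inhba at 0 in all 6 libraries and 2 of 7 tested. Sperm and spermatid genes summed to 1.94 to 4.40 CPM, with Akap4, Smcp and Tnp2 at 0 in all libraries and 1 of 7 tested. Neither of these lists had a call in limma or voom, and at an unadjusted P under 0.05 the cumulus list had 1 gene higher against non-injection and the sperm list 0. Receptor transcripts left over from the oocyte and those made in the embryo cannot be told apart in these libraries, and the part of the oocyte transcripts in the receptor counts was not tested.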

How the data were processed

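RNA-seq libraries of 2-cell embryos (3 groups, 2 libraries each) were made with the SMART-Seq v4 and Nextera XT kits. Per the methods and the submitters' processing notes, the authors trimmed reads with Trim Galore, aligned them to mm10 with STAR, ran featureCounts on the reads that mapped uniquely, and deposited FPKM per gene without spike-ins. The annotation release and strand setting are not given in the sources used here. FPKM multiplied by gene length gave whole fragments for 100% of the values (tolerance 0.01), which set the depth, 871663 to 1363928 fragments per library.

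Receptor genes were taken by symbol, and overlaps and coding lengths came from GENCODE M21, which matched 1584 of the 1736 identifiers. Expected numbers at equal depth followed the hypergeometric distribution. Groups were compared with limma 3.58.1 (lmFit and eBayes with trend) in R 4.3.3 on log2(FPKM + 1), all 6 libraries, over the genes that reached an FPKM of 1 in 2 or more libraries, with Benjamini-Hochberg adjustment. This pseudocount understates changes of low genes. The scripts were tested on simulated data. The members, gene lists and tests were chosen with earlier results of these data known. Named genes were those with at least 10 fragments in both libraries of a group and those called in any comparison. The named lists were the neuron, receptor choice, silencing, two-cell, oocyte, cumulus and sperm lists. Alternatives were other pseudocounts, filters, scalings and depths, a replicate block, voom and leaving out libraries.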

Additional observations from a re-analysis of the deposited data

How the results depend on the processing

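PIASy-WT kept a higher number of detected receptor genes than each other group under every alternative tried, at 1.24 to 1.41 times non-injection and 1.09 to 1.33 times PIASy-Mut. The highest of each came from requiring at least 2 fragments (1.41 and 1.33). Leaving out 1 library gave 1.24 to 1.36 and 1.09 to 1.29. Both PIASy-WT libraries were above all others at equal depth, so leaving out 1 library could not bring either ratio below 1. PIASy-Mut over non-injection turned to 0.985 at full depth, where its libraries are the shallowest. Leaving out 1 library gave 1.01 to 1.2.

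The called genes were few and changed with the settings. Against non-injection the 1 call became 2 with a fold change limit of 1 on the log2 scale and 2 with a filter of FPKM 5. It became 0 with no filter, 3 with only the 4 compared libraries fitted, and 9 with voom. The calls over all genes changed as well. They were 97 higher and 614 lower of 16100 in the main fit, and 78 and 718 of 8282 with FPKM 5. With no filter they were 16 and 144 of 27826, and with only the compared libraries 198 and 819 of 14448. Voom gave 291 and 1098 of 16100. Against PIASy-Mut the 2 calls became 0 with a filter of FPKM 5, with no filter, with only the compared libraries and with quantile normalization. They became 1 with a pseudocount of 0.1 and 4 with voom. Over all genes the calls were 83 higher and 653 lower of 16100 in the main fit. They were 46 and 739 of 8282 with FPKM 5, and 11 and 224 of 27826 with no filter. With only the compared libraries they were 0 and 0 of 14510. Quantile normalization gave 79 and 364 of 16100, a pseudocount of 0.1 gave 75 and 661, and voom 220 and 1033. Fits with 1 library left out leave 1 library in a group and cannot show whether a call holds. PIASy-Mut against non-injection stayed at 0 in all 12 alternatives. With a replicate block the calls were 2 against non-injection, Olfr1164 and Olfr994, and 1 against PIASy-Mut, Olfr848-ps1. The labels share only a number between groups, and the same-numbered libraries did not deviate together, with correlations across genes of 0.0037 to 0.085. The causes of these changes were not tested. The number of expressed genes was 47 at a minimum of 5 fragments, 14 at 20, and 23 without genes that overlap another. No fold change of the named genes that lay apart in PIASy-WT reversed in any alternative. Both PIASy-WT libraries lay beyond all others for these genes, so leaving out a library or changing the pseudocount or filter could not reverse them. With 2 libraries per group, genes below about 3 fragments could not be compared.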
